A study of Mus musculus with 33 samples.

Results

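The mitogen-activated protein kinase (MAPK) cascade and its negative regulators were followed in mouse spleen cells exposed to immunostimulatory DNA. The genes were those whose platform symbol begins with Map2k, Map3k, Map4k, Mapk, Dusp followed by a digit, Gadd45, Spry followed by a digit, or Spred. The platform carried 67 such symbols. Values were present for 55 of them, and on all 33 arrays for 21, among 9672 named genes measured. The 55 comprise 26 kinases (3 MAP4Ks, 10 MAP3Ks, 5 MAP2Ks, 6 MAPKs and 2 MAPKAPKs), 24 feedback genes (17 DUSPs, 3 GADD45, 2 Sprouty and 2 SPRED genes) and 5 accessory proteins (scaffolds and binding proteins). The 12 symbols with no value on any array were Dusp10, Dusp21, Dusp28, Map2k4, Map3k4, Map3k12, Map3k21, Mapk8ip1, Mapk10, Mapk11, Mapk13 and Spry2. Spleen cells from female BALB/c mice aged 2 months were cultured at 37 C for 2, 4 or 8 h. The CpG ODN groups received 1 uM of an equimolar mix of CpG ODN 1555 and 1466. The control ODN groups received 1 uM of an equimolar mix of ODN 1612 and 1471, which lack CpG motifs, and the last groups were kept in medium alone. Each of the 3 treatments had 4 arrays at 2 h and 4 h and 3 arrays at 8 h, and the series design speaks of 3 to 4 independent experiments.

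CpG ODN are short synthetic DNAs read by Toll-like receptor 9 (Tlr9), which in mouse spleen is found mainly in B cells, dendritic cells and macrophages. The receptor signals through Myd88 and the kinase Map3k7 (TAK1) to 3 MAPK arms, those of ERK, JNK and p38, in each of which a MAP3K phosphorylates a MAP2K and this phosphorylates the MAPK. Dual-specificity phosphatases (DUSPs) remove the activating phosphates, Sprouty and SPRED proteins restrain RAS and RAF, and GADD45 proteins bind the kinase MEKK4 (Map3k4) and other cascade members. GADD45 genes are grouped here with the feedback genes because they are inducible regulators of the cascade, although they are known to activate as well as to restrain it. An array reports RNA, so the phosphorylation through which the cascade works was not measured.

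Promoter sequence is shown for the responders Gadd45b, Gadd45g and Mapk14 and, for contrast, for Dusp1, an immediate early phosphatase gene that was not called against either control. The contrast is in calls only, since the CpG ODN arrays of Dusp1 at 8 h lay above those of both controls. Sequences are from RefSeq (GRCm38.p6), 250 bases before to 50 after the start, 5′ to 3′ on the gene's strand. Capitals mark matches to the motifs searched on both strands: the AP-1 site TGANTCA, the cyclic AMP response element core TGACGT, the interferon regulatory factor (IRF) motif, the NF-kB site (kappaB consensus), the CArG box and TATAAA. Of the 55 measured genes, 46 had a promoter entry, with 57 promoters in all. Gadd45b lies at chr10:80929841-80930140 (+), Gadd45g at chr13:51846425-51846724 (+), the Mapk14 promoters at chr17:28691092-28691391 and chr17:28692318-28692617 (+), and Dusp1 at chr17:26508423-26508722 (-).
Gadd45b: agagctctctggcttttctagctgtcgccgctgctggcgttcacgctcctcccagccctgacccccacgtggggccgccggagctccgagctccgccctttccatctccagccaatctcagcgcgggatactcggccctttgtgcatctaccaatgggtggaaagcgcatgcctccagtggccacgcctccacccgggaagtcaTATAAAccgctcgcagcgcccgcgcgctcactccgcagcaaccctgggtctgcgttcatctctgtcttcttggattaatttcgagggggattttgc
Gadd45g: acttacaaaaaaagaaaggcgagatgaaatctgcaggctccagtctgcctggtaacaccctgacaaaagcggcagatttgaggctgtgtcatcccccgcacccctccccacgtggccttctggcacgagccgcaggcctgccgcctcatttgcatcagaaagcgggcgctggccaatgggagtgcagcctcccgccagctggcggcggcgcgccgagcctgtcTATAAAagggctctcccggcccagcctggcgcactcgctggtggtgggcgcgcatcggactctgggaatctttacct
Mapk14, upstream start: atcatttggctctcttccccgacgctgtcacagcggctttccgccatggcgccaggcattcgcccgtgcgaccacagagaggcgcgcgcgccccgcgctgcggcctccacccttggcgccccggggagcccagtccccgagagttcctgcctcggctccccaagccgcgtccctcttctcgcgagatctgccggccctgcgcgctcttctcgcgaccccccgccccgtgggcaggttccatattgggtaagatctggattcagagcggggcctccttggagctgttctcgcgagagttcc
Mapk14, downstream start: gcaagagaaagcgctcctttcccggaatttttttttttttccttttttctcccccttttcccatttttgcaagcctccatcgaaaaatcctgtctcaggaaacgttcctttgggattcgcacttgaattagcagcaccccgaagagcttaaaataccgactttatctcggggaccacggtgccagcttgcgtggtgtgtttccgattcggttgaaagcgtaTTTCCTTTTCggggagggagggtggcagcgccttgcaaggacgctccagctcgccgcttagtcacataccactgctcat
Dusp1: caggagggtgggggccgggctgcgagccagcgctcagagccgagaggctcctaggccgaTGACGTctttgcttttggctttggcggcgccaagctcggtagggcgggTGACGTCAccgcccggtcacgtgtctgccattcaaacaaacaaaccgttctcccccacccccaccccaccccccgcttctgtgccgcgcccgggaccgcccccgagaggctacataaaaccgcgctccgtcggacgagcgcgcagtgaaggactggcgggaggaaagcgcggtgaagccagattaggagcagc
TATAAA began 46 bases before the start in Gadd45b and 27 in Gadd45g. It occurred in 3 of the 57 promoters, the other being Map2k6, and in 13.6% of 32851 promoters of the same length, and was added to the search after these sequences had been seen. Dusp1 held TGACGT on the plus strand 191 and 143 bases before its start, the nearer site overlapping a minus-strand match, and this core occurred in 8 of 57 promoters and 7.51% of all. The downstream Mapk14 promoter held the IRF motif on the minus strand 29 bases before its start, as did 1 of 57 and 3.44% of all. AP-1 sites occurred in 2 of 57 promoters (7.81% of all), kappaB sites in 5 (8.46%) and CArG boxes in 0 (1.63%). A match describes letters in this window only.

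The values are log2 ratios of spleen cell RNA (Cy5) over Universal Mouse Reference RNA (Cy3), each array centred on its median, and a difference of 1 is a doubling. Between 7908 and 11129 probes had a value on each array. Precision is limited by how many arrays there are. Arrays of a group correlated at 0.755 to 0.938. The cell type was checked on marker lists, each by the lowest and highest array median, without ranking the lists. Those of 8 B cell markers lay between 1.39 and 3.52, of 9 T cell markers between 0.596 and 2.98 and of 5 NK cell markers between 0.124 and 2.73. Those of 7 monocyte and macrophage markers lay between -0.566 and 1.54, of 3 dendritic cell markers between -0.44 and 1.75, of 6 neutrophil markers between -0.292 and 5.23 and of 3 erythroid markers between 0.655 and 6.35. Those of 5 genes of tissues other than spleen lay between -0.624 and 1.80. A ratio is read against the reference pool and the array median, probe by probe. Over all arrays Map4k1, a kinase of blood cells, averaged 1.51 over the arrays, Dusp2, a phosphatase of activated lymphocytes, 2.64 and Spred1 -1.49.

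Few members were called before 8 h. A gene was called at a limma adjusted p below 0.05 over all genes tested. Against control ODN, 0 of 52 members tested were called at 2 h (2 at an unadjusted p below 0.05), where 0.0430% of all genes were called. At 4 h, 3 of 55 were called, all higher with CpG ODN, against 0.384% of all genes. At 8 h, 5 of 55 were called (4 higher, 1 lower), against 10.0% of all genes (4.55% higher, 5.45% lower). Against medium, 0 of 53 were called at 2 h (5 at an unadjusted p below 0.05; 0.0420% of all genes) and 1 of 55 at 4 h (0 lower and 1 higher; 0.218% of all genes, 0.207% higher and 0.0104% lower). At 8 h against medium, 6 of 55 were called (4 higher, 2 lower), where 11.8% of all genes were (5.66% higher, 6.11% lower). The share of members called at 8 h thus lay close to that of all genes, and the results at that time are about single genes. The median difference over all genes at 8 h was -0.12 against control ODN and -0.13 against medium. With the spread estimated from the compared groups alone, which leaves fewer residual degrees of freedom, 0 members were called at 4 h against either control. At 8 h, 3 were then called against control ODN (Gadd45b, Gadd45g and Mapk14) and 2 against medium (Gadd45b and Gadd45g). The share of all genes called in that fit is not given, so these counts do not set the members apart from other genes. Both comparisons use the same CpG ODN arrays, so their values are given side by side.

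Some cell type markers moved with the CpG ODN groups. At 2 h the array medians of the B cell markers ran from 2.37 to 2.50 with CpG ODN, against 2.76 to 3.34 with control ODN and 2.80 to 3.33 in medium, and 0 of the markers were called. At 8 h they ran from 1.67 to 2.05 with CpG ODN, against 2.92 to 3.52 with control ODN and 1.39 to 3.39 in medium. Those of the T cell markers ran from 0.596 to 2.15 with CpG ODN, against 2.11 to 2.80 with control ODN and 1.93 to 2.98 in medium. At 8 h against control ODN, 2 of 8 B cell markers (Cd79b and Cd37), 4 of 9 T cell markers (Cd3e, Cd3g, Cd5 and Lat) and 2 of 7 monocyte and macrophage markers (Cd14 and Vcam1) were called lower. None of 5 NK cell, 3 dendritic cell, 6 neutrophil, 3 erythroid and 4 other-tissue genes tested were called there. Of all genes, 5.45% were called lower against control ODN at 8 h and 6.11% against medium. Against medium at 8 h, 1 of 8 B cell markers (Cd79b) and 1 of 9 T cell markers (Cd3g) were called lower. The B cell markers were split there, with 4 of 8 differences positive and a median of -0.155. Of the T cell markers 1 of 9 was positive, with a median of -0.527. Cd14, Vcam1 and the neutrophil gene S100a8 were also called lower against medium. The part of these markers in the member differences was not tested. In bulk RNA, fewer cells of a type and less RNA per cell cannot be told apart.

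Gadd45b and Gadd45g, which bind upstream kinases of the p38 and JNK arms, rose with CpG ODN. Gadd45b read 0.55, 0.88, 0.77 and 1.11 with CpG ODN at 2 h, against 0.10, -0.04 and 0.37 with control ODN (1 array without a value) and 0.12, 0.38, 0.48 and 0.39 in medium. The CpG ODN arrays lay above both controls without overlap, but the differences of 0.68 ± 0.21 and 0.48 ± 0.19 (SE) were not called. At 4 h Gadd45b read 1.49, 1.75, 1.49 and 1.47 with CpG ODN, against 0.66, 0.49, 0.44 and 0.13 with control ODN and 0.42, 0.42, 0.75 and 0.50 in medium. The groups did not overlap, and the differences of 1.12 ± 0.19 (SE, adjusted p = 0.00267) against control ODN and 1.03 ± 0.19 (adjusted p = 0.00821) against medium were called. At 8 h it read 1.98, 2.23 and 2.19 with CpG ODN, against 0.78, 0.13 and 0.57 with control ODN and 0.49, -0.68 and -0.07 in medium. Again the groups did not overlap, and the differences were 1.64 ± 0.22 (95% interval 1.18 to 2.10, adjusted p = 5.64e-06) and 2.22 ± 0.22 (1.76 to 2.68, adjusted p = 2.83e-08).

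Gadd45g followed the same course from a lower ratio. At 2 h it read -0.51, -0.74, -0.77 and -0.44 with CpG ODN, against -1.21, -1.35, -0.77 and -0.64 with control ODN and -1.03, -1.46, -0.69 and -0.77 in medium. These groups overlapped and the differences of 0.38 ± 0.19 and 0.37 ± 0.19 (SE) were not called. At 4 h it read 0.04, -0.01, -0.10 and -0.16 with CpG ODN, against -0.93, -1.13 and -1.12 with control ODN (1 array without a value) and -0.96, -0.98, -0.75 and -0.76 in medium. The groups stood apart, with a called difference of 1.00 ± 0.21 (adjusted p = 0.0141) against control ODN and one of 0.81 ± 0.19 (adjusted p = 0.0883) against medium that was not called. The call against control ODN at 4 h was lost without control ODN repeat 2 (adjusted p = 0.0947) or 3 (0.1065) and without CpG ODN repeat 1 (0.0529). At 8 h Gadd45g read 0.69, 1.04 and 1.09 with CpG ODN, against -0.46, -1.03 and -0.99 with control ODN and -0.49, -1.17 and -1.10 in medium. Every CpG ODN array was above 0 and every control array below it, and the differences were 1.77 ± 0.22 (adjusted p = 1.3e-06) and 1.86 ± 0.22 (adjusted p = 4.58e-07). Gadd45a, known best as a p53 target, had values on 2 or more arrays of each group and was called in no comparison; at 8 h its differences were 0.31 ± 0.37 and 0.61 ± 0.37 (SE).

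**Figure D1:**
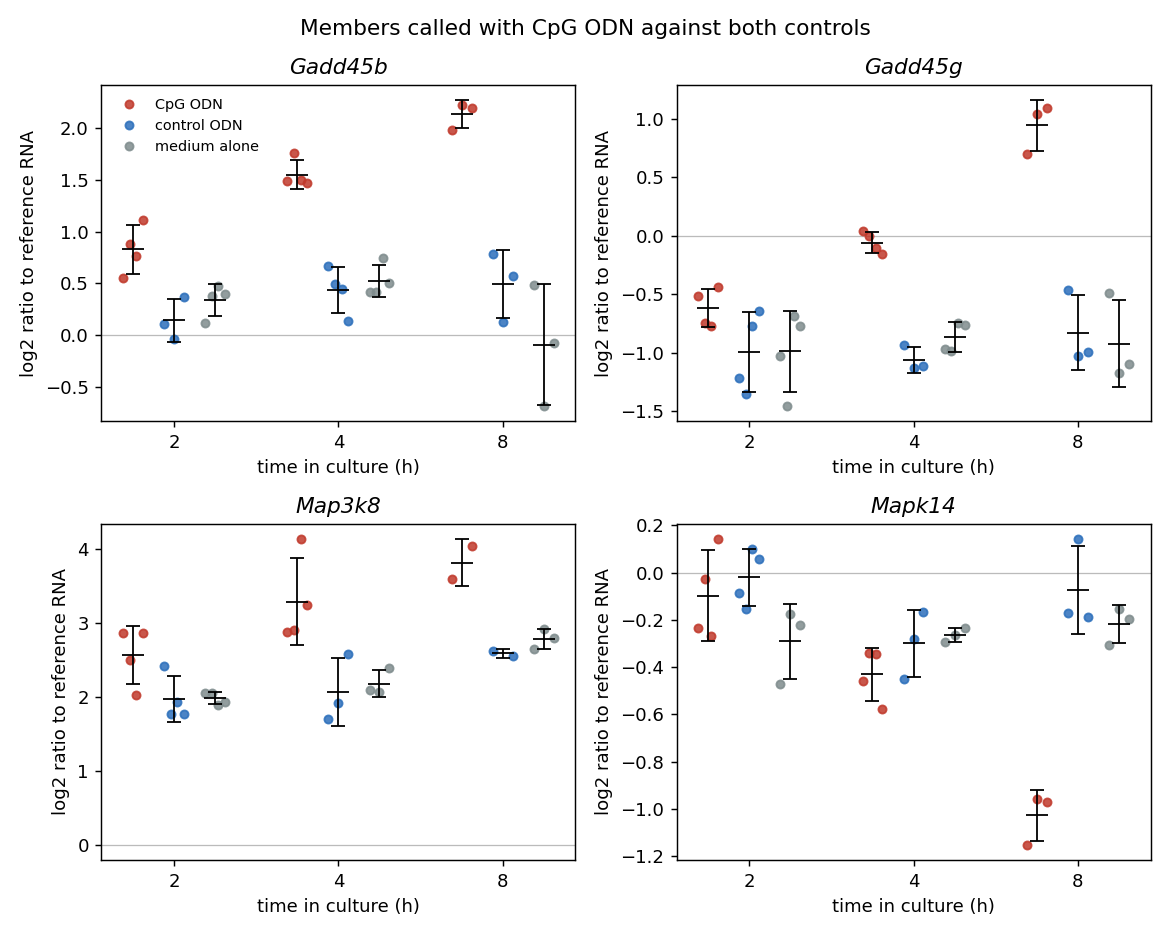
Log2 ratio to reference RNA (vertical axis) of the 4 members called against both controls at 8 h, by time in culture (h); each point is an array, bars are the mean and SD of a group (n = 2 to 4 measured arrays). The CpG ODN arrays of Gadd45b and Gadd45g stand above both controls at 4 h and 8 h, those of Map3k8 above both at 4 h and 8 h, and those of Mapk14 below both at 8 h.

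Map3k8 (Tpl2), the MAP3K that links Toll-like receptors to ERK, was higher with CpG ODN at 4 h and 8 h. It read 2.87, 2.50, 2.03 and 2.86 with CpG ODN at 2 h, against 2.42, 1.77, 1.93 and 1.77 with control ODN and 2.06, 2.06, 1.90 and 1.94 in medium, with overlap and without a call. At 4 h it read 2.87, 2.91, 4.14 and 3.24 with CpG ODN, against 1.70, 1.92 and 2.58 with control ODN and 2.09, 2.06 and 2.39 in medium (1 array without a value in each). The CpG ODN arrays were all higher, and the difference of 1.22 ± 0.26 (SE, adjusted p = 0.0265) against control ODN was called, while 1.11 ± 0.26 (adjusted p = 0.0943) against medium was not. The call was lost without control ODN repeat 1 (adjusted p = 0.3055) or 3 (0.211), without CpG ODN repeat 3 (0.1475) or 4 (0.0717), and under quantile normalization (0.0558). At 8 h the 2 CpG ODN arrays with a value read 3.59 and 4.04, the 2 with control ODN 2.63 and 2.55, and the 3 in medium 2.65, 2.92 and 2.80. The differences of 1.23 ± 0.35 (adjusted p = 0.0221) and 1.03 ± 0.32 (adjusted p = 0.0329) were called. The first rests on 2 against 2 measured arrays and could not be tested with any of them left out. The second was lost without medium repeat 1 (0.063), 2 (0.0541) or 3 (0.0676). Neither was called with the spread estimated from the compared groups alone.

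Mapk14 (p38 alpha), the p38 kinase expressed in most cells, was the kinase called lower. At 2 h it read -0.23, -0.03, -0.27 and 0.14 with CpG ODN, against -0.09, -0.15, 0.10 and 0.06 with control ODN and -0.47, -0.18 and -0.22 in medium (1 array without a value). At 4 h it read -0.46, -0.34, -0.34 and -0.58 with CpG ODN, against -0.45, -0.28 and -0.17 with control ODN and -0.29, -0.26 and -0.23 in medium (1 array without a value in each control). Neither time gave a call. At 8 h it read -1.15, -0.96 and -0.97 with CpG ODN, against -0.17, 0.14 and -0.19 with control ODN and -0.31, -0.15 and -0.20 in medium. The 3 CpG ODN arrays lay below all 6 control arrays, and Mapk14 fell by 0.95 (SE 0.16, 95% interval -1.28 to -0.63, adjusted p = 0.000148) against control ODN and by 0.81 (SE 0.16, adjusted p = 0.000961) against medium.

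The other 24 kinases gave no call against either control. At 8 h the median difference of the 10 MAP3Ks was -0.42 against control ODN and -0.29 against medium, with Map3k8 as the 1 called. That of the 6 MAPKs was -0.25 and -0.15, with Mapk14 as the 1 called, and that of the 5 MAP2Ks, of which 0 were called, was 0.14 and 0.08. Among the MAP3Ks, Map3k7 (TAK1), the kinase next to the receptor complex, differed from control ODN by 0.61 ± 0.23 (SE) at 4 h and 0.19 ± 0.26 at 8 h. Map3k14 (NIK), of the alternative NF-kB pathway, differed by -0.50 ± 0.45, Map3k1 (MEKK1), which feeds JNK, by -0.68 ± 0.42 and Map3k5 (ASK1), a stress kinase, by 0.33 ± 0.24 at 8 h. Of the MAP2Ks at 8 h against control ODN, Map2k1 and Map2k2 (MEK1 and MEK2, which act on ERK) differed by 0.27 ± 0.28 and 0.07 ± 0.27. Map2k3 and Map2k6, which act on p38, differed by 0.14 ± 0.51 and -0.61 ± 0.26. Against medium Map2k6 differed by -0.74 ± 0.26, in both cases with all CpG ODN arrays lower, without overlap and without a call (adjusted p = 0.138 and 0.0566). The JNK genes Mapk8 and Mapk9 differed by -0.22 ± 0.36 and -0.28 ± 0.26, Map4k1 by -0.29 ± 0.27, and Mapkapk2, a kinase that p38 activates, by 0.33 ± 0.43. The 95% intervals of these differences were wide, that of Mapk8 running from -0.95 to 0.51 and that of Map2k2 from -0.47 to 0.62, so a missed call does not show that a gene did not differ.

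The 7 classical MAP kinase phosphatases (Dusp1, Dusp2, Dusp4, Dusp6, Dusp7, Dusp8 and Dusp16) gave 0 calls with limma against either control at any time, and 0 were at an unadjusted p below 0.05. Dusp1, which acts on p38 and JNK, read -0.27, -0.29 and -0.29 at 8 h with CpG ODN, against -0.60, -0.95 and -1.23 with control ODN and -0.79, -0.64 and -0.90 in medium. The groups did not overlap, but differences of 0.64 ± 0.35 (SE, adjusted p = 0.296) and 0.49 ± 0.35 (adjusted p = 0.424) were not called. Dusp2 had the widest SD of any member in a single group, 2.04 in medium at 2 h (n = 4). At 8 h it read 3.15 and 2.67 with CpG ODN (1 array without a value), against 3.35, 0.40 and 3.11 with control ODN and 2.70, -0.90 and 1.00 in medium. The difference of 1.98 against medium had a 95% interval of -0.08 to 4.04, that of 0.62 against control ODN one of -1.44 to 2.68. Dusp6, the cytoplasmic ERK phosphatase, read -0.39, -0.21 and 0.07 with CpG ODN, against -0.43, -0.45 and -1.31 with control ODN and -0.68, -0.25 and -0.57 in medium at 8 h. It was higher than control ODN on all arrays by 0.55 ± 0.31 (adjusted p = 0.305), and it overlapped medium. Dusp4, a nuclear phosphatase, and Dusp16, which acts on JNK, differed from control ODN by 0.19 ± 0.38 and 0.14 ± 0.24 at 8 h.

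**Figure D2:**
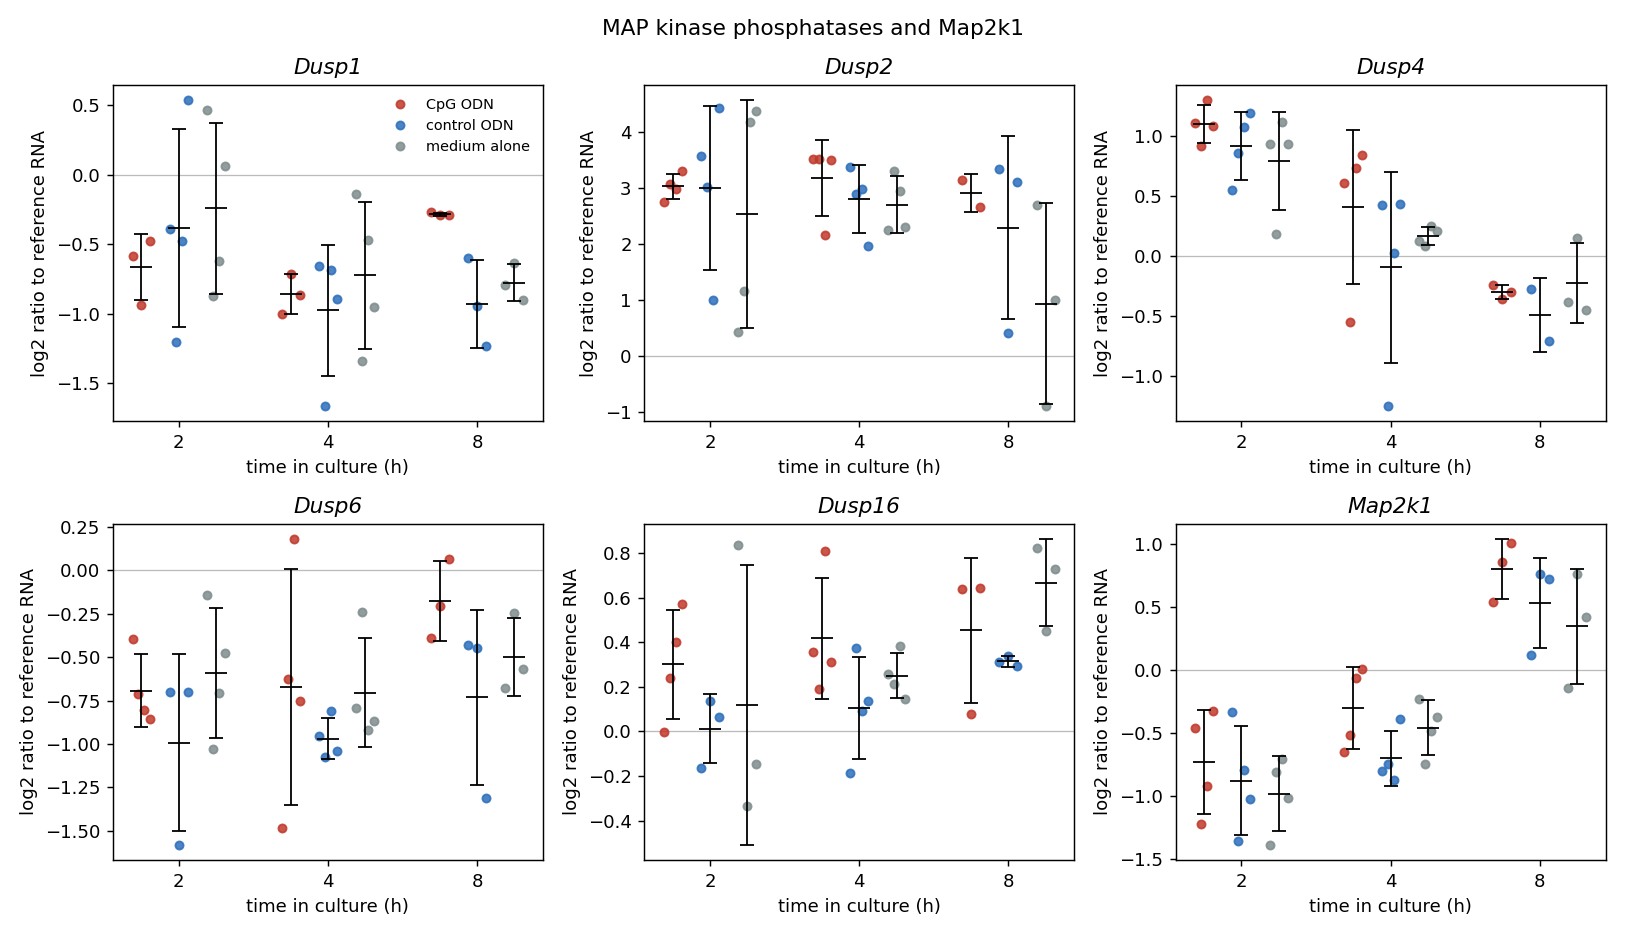
Log2 ratio to reference RNA (vertical axis) of 5 MAP kinase phosphatases and the ERK-activating kinase Map2k1, by time in culture (h); each point is an array and bars are the mean and SD of a group. Dusp2 spreads between -0.90 and 2.70 in medium at 8 h, while Dusp4 falls and Map2k1 rises with time in every treatment.

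Among the 10 atypical DUSPs, which lack the kinase-docking domain of the classical ones, 1 was called at 8 h against control ODN (10.0% of all genes) and 2 against medium (11.8% of all genes), shares near those of all genes given the small number. Dusp12, which carries a zinc-binding domain, read 0.19, 0.65 and 1.06 with CpG ODN, against -0.68, -0.03 and -0.06 with control ODN and -0.55, 0.39 and 0.25 in medium. It stood apart from control ODN and overlapped medium, with differences of 0.89 ± 0.28 (SE, adjusted p = 0.0358) and 0.60 ± 0.28 (adjusted p = 0.169). The call was lost without control ODN repeat 1 (adjusted p = 0.169), without CpG ODN repeat 2 (0.0953) or 3 (0.19), and under quantile normalization (0.0652). Dusp22, a regulator of JNK signalling, read -0.71, -0.64 and -0.44 with CpG ODN, against -1.29, -1.46 and -0.999 with control ODN and -1.15, -1.37 and -1.46 in medium. It was higher on all CpG ODN arrays, by 0.65 ± 0.22 (adjusted p = 0.0612) and 0.73 ± 0.22 (adjusted p = 0.0297). The call against medium was lost without CpG ODN repeat 2 (0.0666) or 3 (0.106) and without medium repeat 2 (0.0847) or 3 (0.102). Dusp3, an ERK and JNK phosphatase, differed by -0.62 ± 0.23 and -0.64 ± 0.23 and was not called (adjusted p = 0.081 and 0.0612). Dusp11, which removes phosphates from RNA 5′ ends rather than from kinases, read 0.57, 0.48 and 0.76 with CpG ODN, against 1.32, 0.99 and 0.93 with control ODN and 1.14, 1.68 and 1.38 in medium. It was lower on all CpG ODN arrays, with differences of -0.48 ± 0.19 (adjusted p = 0.123) and -0.80 ± 0.19 (adjusted p = 0.00511), and under quantile normalization the call against medium was lost (0.0804).

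Sprouty and SPRED genes, whose products damp RAS to ERK signalling, gave no call. Against control ODN at 8 h, Spry1 differed by -0.41 ± 0.33 (SE), Spry4 by -0.50 ± 0.43, Spred1 by -0.11 ± 0.34 and Spred2 by -0.46 ± 0.61. Against medium, Spry4 differed by -1.08 ± 0.48 (adjusted p = 0.157) on 3 against 2 measured arrays. The probes of Spred1 differed in sign at 8 h, with -0.11 and 0.27 against control ODN. Of the 5 accessory genes, the widest difference at 8 h was that of Mapk8ip2, a JNK scaffold, at 0.91 ± 0.38 against control ODN (adjusted p = 0.15).

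Kinases and feedback genes are set side by side in the plot of class differences. The feedback class was set by symbol, so it includes Dusp11, which acts on RNA 5′ ends rather than on kinases. Against control ODN, the median difference of the kinases was -0.09, -0.12 and -0.27 at 2, 4 and 8 h, and that of the feedback genes 0.05, 0.23 and 0.17. Over all genes tested the medians were -0.02, -0.01 and -0.12. Against medium the kinases had medians of -0.01, -0.04 and -0.15 and the feedback genes 0.08, 0.16 and 0.07, where all genes had 0, -0.04 and -0.13. At 8 h, 2 of 26 kinases (Map3k8 higher, Mapk14 lower) and 3 of 24 feedback genes (Gadd45b, Gadd45g and Dusp12, all higher) were called against control ODN, where 10.0% of all genes were called (4.55% higher, 5.45% lower). Against medium at 8 h, 2 of 26 kinases (Map3k8 higher, Mapk14 lower) and 4 of 24 feedback genes were called. These feedback genes were Gadd45b, Gadd45g and Dusp22, higher, and Dusp11, lower. Of all genes 11.8% were called there (5.66% higher, 6.11% lower). With such small classes none of these counts stands far from the share of all genes. Positive differences at 8 h were found for 10 of 26 kinases and 16 of 24 feedback genes against control ODN. Against medium they were found for 9 of 26 and 13 of 24. The share of positive differences over all genes was not counted, and the medians over all genes were below 0 in both comparisons. The classes were not tested against each other. The feedback genes called against either control were GADD45 members and atypical DUSPs, not classical phosphatases.

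**Figure D3:**
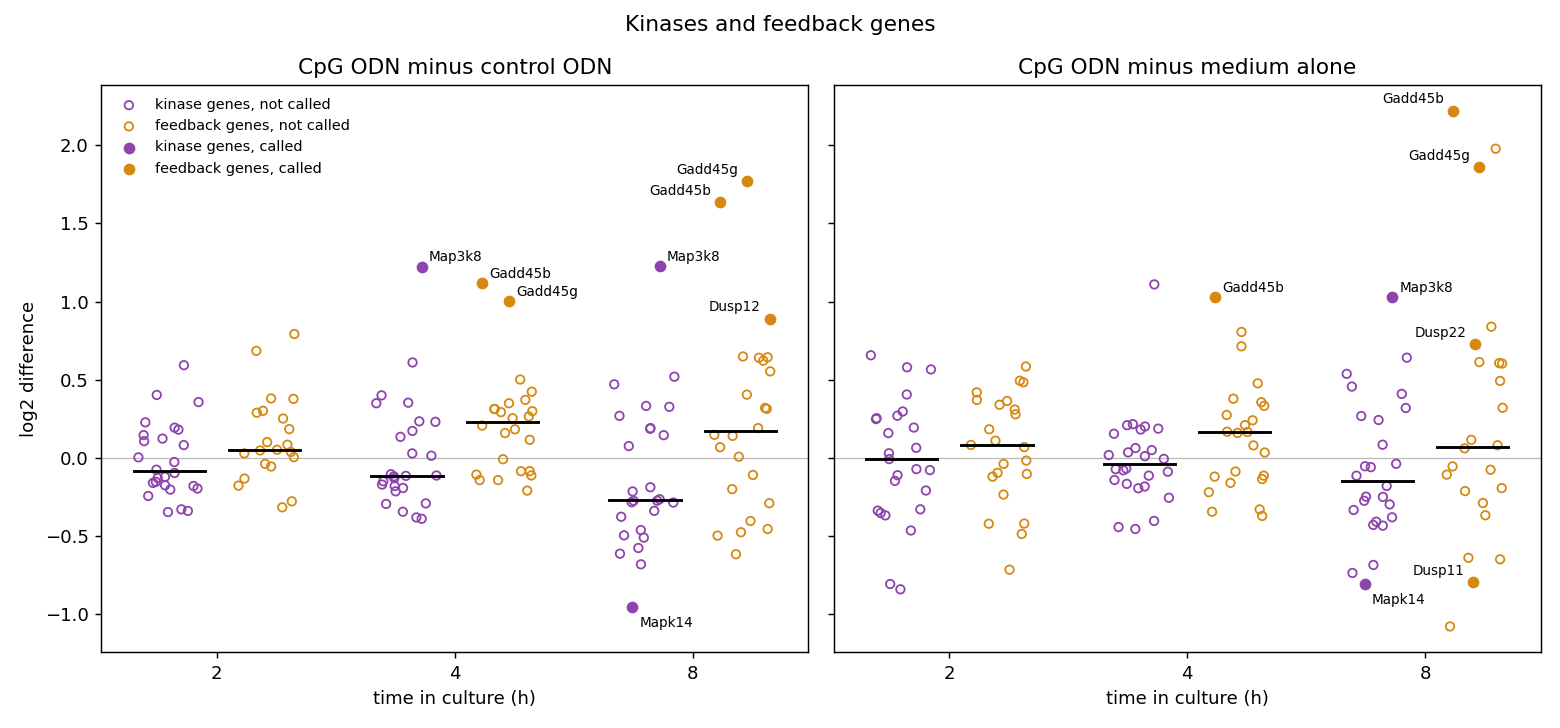
Log2 difference (vertical axis) of every kinase and feedback gene tested, CpG ODN minus control ODN on the left and CpG ODN minus medium on the right, by time in culture (h); filled points were called at a limma adjusted p below 0.05 and bars are class medians. The medians stay between -0.27 and 0.23 while Gadd45b, Gadd45g and Map3k8 stand above 1 at 8 h in both panels.

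The control ODN gave no call against medium. Of the members, 0 of 50, 0 of 55 and 0 of 55 were called with limma at 2, 4 and 8 h (0, 1 and 2 at an unadjusted p below 0.05), and 0% of all genes were called at each time. Gadd45b differed by 0.58 ± 0.22 (SE) at 8 h, Gadd45g by 0.09 ± 0.22, Map3k8 by -0.20 ± 0.32 and Mapk14 by 0.15 ± 0.16.

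Map2k1 rose and Dusp4 fell with time in every treatment. Between 8 h and 2 h, 8 of 55 members were called with CpG ODN, 6 higher and 2 lower at 8 h, against 16.6% of all genes (8.45% higher, 8.13% lower). With control ODN 2 of 52 were called, 1 each way, against 10.1% (7.61% higher, 2.48% lower). In medium 6 of 53 were called, 3 each way, against 14.6% (9.26% higher, 5.30% lower). Map2k1 read 0.54, 0.86 and 1.01 at 8 h with CpG ODN, against -0.46, -1.22, -0.92 and -0.33 at 2 h. Its 8 h arrays lay above all 2 h arrays, and it rose by 1.54 ± 0.26 (SE, adjusted p = 6.41e-05) with CpG ODN, 1.41 ± 0.26 (adjusted p = 0.000373) with control ODN and 1.33 ± 0.26 (adjusted p = 0.000705) in medium. Dusp4 read -0.25, -0.36 and -0.31 at 8 h with CpG ODN, against 1.11, 0.91, 1.30 and 1.08 at 2 h. It fell by 1.40 (SE 0.32, adjusted p = 0.00222) with CpG ODN, 1.41 (SE 0.36, adjusted p = 0.00967) with control ODN and 1.02 (SE 0.32, adjusted p = 0.0288) in medium. The call in medium was lost without repeat 1, 3 or 4 at 2 h or repeat 1 or 3 at 8 h (adjusted p = 0.0558 to 0.122).

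Macrophage and neutrophil markers also moved between 8 h and 2 h. Of 7 monocyte and macrophage markers, 5 were called lower with CpG ODN (median -1.94), 3 with control ODN (-1.01) and 3 in medium (-0.96). The complement genes C1qb and C1qc and the adhesion molecule gene Vcam1 were called lower in every treatment, Vcam1 by -3.65, -2.51 and -2.59 in the same order. Of 6 neutrophil markers, 2, 1 and 0 were called lower (medians -2.01, -0.89 and -1.03). The shares of all genes called lower were 8.13% with CpG ODN, 2.48% with control ODN and 5.30% in medium. Those called higher were 8.45%, 7.61% and 9.26%. Among B cell, T cell, NK cell and erythroid markers with CpG ODN, Cd79b, Cd5, Klrb1c and Epor were called lower and Cd8b1 higher. Cd8a and Cd8b1 were called higher with control ODN and Cd3d and Cd8a in medium. The part of these markers in the changes of members with time was not tested.

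With CpG ODN, Gadd45b (1.30 ± 0.21), Gadd45g (1.56 ± 0.21) and Map3k8 (1.25 ± 0.30) also rose between 2 h and 8 h, as did Mapk6 (ERK3, an atypical MAPK; 0.79 ± 0.26) and Map3k5 (0.64 ± 0.22), while Mapk14 fell by 0.93 (SE 0.15). The calls of Mapk6 (adjusted p of up to 0.144) and Map3k5 (up to 0.211) were each lost without 5 of 7 arrays. Without CpG ODN repeat 2 or 3 at 8 h, 5 members were called (Dusp4, Gadd45b, Gadd45g, Map2k1 and Mapk14), Map3k8 then having too few values to be tested. In medium, Map3k8 rose by 0.80 ± 0.26 (adjusted p = 0.0407) and Dusp11 by 0.58 ± 0.18 (adjusted p = 0.0283), and Dusp14, an atypical DUSP, fell by 1.35 (SE 0.40, adjusted p = 0.0194) and Map3k3 (MEKK3) by 1.12 (SE 0.29, adjusted p = 0.0123). The Map3k3 call rests on 2 measured arrays at 8 h against 4 at 2 h, and could not be tested without either of those 2. It was kept in the 5 leave-one-out fits that could test it, which include the fit without the 8 h array lacking a Map3k3 value. The other 3 calls were lost without 3 to 6 of the arrays, with adjusted p of up to 0.13 (Map3k8), 0.167 (Dusp11) and 0.0972 (Dusp14). Without medium repeat 3 or 4 at 2 h, 3 members were called in medium, and without repeat 3 at 8 h, 2. With control ODN the count was 4 without repeat 1 at 8 h and 1 without repeat 2 or 3. The counts with an array left out are given without the share of all genes called in the same fits. They therefore do not set the members apart from other genes.

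The change of the CpG ODN minus control ODN difference between 2 h and 8 h was called for 2 of 52 members, 1 each way, against 3.26% of all genes (2.13% higher, 1.13% lower). For Gadd45g the difference grew by 1.39 ± 0.29 (SE, adjusted p = 0.00382), and for Mapk14 it moved by -0.88 ± 0.21 (adjusted p = 0.0149). The Mapk14 call was lost without control ODN repeat 2 at 8 h (adjusted p = 0.0643). For Gadd45b the change was 0.95 ± 0.31 (adjusted p = 0.0939) and for Map3k8 0.63 ± 0.42 (adjusted p = 0.551), neither called.

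**Figure D4:**
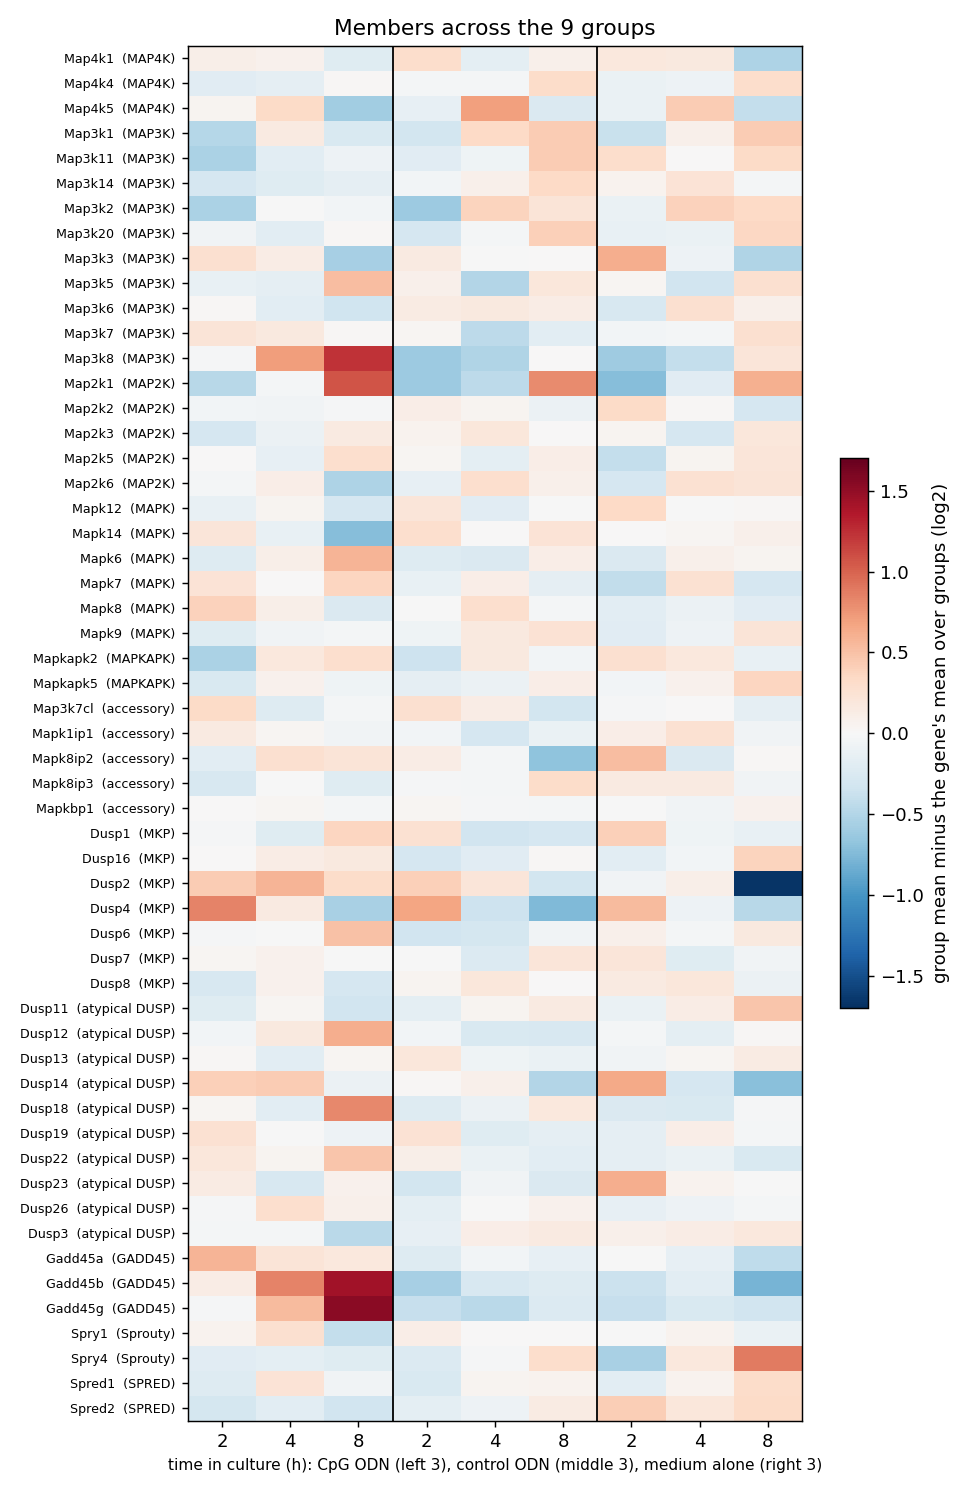
Group means of all 55 members, each given as the difference (log2) from that gene's mean over the 9 groups, ordered by role; columns run 2, 4 and 8 h within CpG ODN, control ODN and medium. Gadd45b, Gadd45g and Map3k8 are high with CpG ODN at 8 h, Map2k1 is high at 8 h in every treatment and Dusp4 is high at 2 h in every treatment.

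Other genes of the pathway were counted from lists. Of the immediate early targets of MAPK signalling, Myc rose with CpG ODN at 4 h (1.22 ± 0.25, SE, adjusted p = 0.0115) as 1 of 23 tested against control ODN, while 0 of 23 were called against medium. At 8 h against control ODN, 3 of 22 were higher, Jun (2.31 ± 0.24), Atf3 (1.98 ± 0.32) and Myc (1.56 ± 0.29), and 2 lower, Btg2 (-1.04 ± 0.26) and Egr1 (-0.82 ± 0.27), an ERK target. Against medium, Jun, Atf3 and Myc were higher by 2.44, 2.48 and 1.57, and Btg2, Egr1 and Nr4a2 lower, with differences of -0.95, -0.81 and -1.18, of 23 tested. Of 14 genes of the RAS and RAF arm, 0 were higher and 2 lower at 8 h against control ODN: Rasgrp2 (-1.64 ± 0.36), a RAP and RAS activator, and Rasa3 (-1.45 ± 0.24), a GTPase-activating protein. Against medium the 2 called lower were Rasa3 (-1.29 ± 0.24) and Sos2 (-0.78 ± 0.21), a RAS exchange factor, and Rasgrp2 was not called. Of 10 Toll-like receptor adaptors and their partners, 1 rose, the adaptor Myd88 (1.41 ± 0.25 against control ODN, limma adjusted p = 0.000202, and 1.65 ± 0.25 against medium). Among 4 kinases downstream of the MAPKs, Rps6ka5 (MSK1) was lower (-1.02 ± 0.27 against control ODN and -1.48 ± 0.27 against medium), and among 8 other phosphatases acting on the MAPKs, Ppm1d (WIP1), which acts on p38, was lower (-1.18 ± 0.31 and -1.15 ± 0.31). Medians of these lists at 8 h against control ODN lay between -0.30 and 0.05, where all genes had -0.12. Of all genes, 0.384% were called against control ODN and 0.218% against medium at 4 h. At 8 h the shares were 10.0% (4.55% higher, 5.45% lower) and 11.8% (5.66% higher, 6.11% lower). Given the small lists, the counts at 8 h outside the immediate early list do not stand far from these shares.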

How the data were processed

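The deposited value table gives, per the labels, the log ratio of Cy5 (spleen cell) over Cy3 (reference) signal for each of 16720 probes and 33 arrays. The base of the deposited log ratios is unstated, and values from -6.51 to 8.54 were read as log2 ratios as deposited by the authors. How the authors corrected background, filtered spots and normalized is not given in the sources used here. Each array was centred on its median. Probes with exactly 1 symbol in the platform annotation were used, and of a gene's probes the one with the fewest missing values. Genes were fitted with 1 mean for each of 9 groups, the variances were moderated with limma 3.58.1 (R 4.3.3), and p-values were adjusted by Benjamini-Hochberg over all genes tested. A gene was tested with at least 2 measured arrays in each group compared. The procedure was tested on simulated data with independent noise on each array, so that test does not cover arrays that share an experiment. SE is from the fit and SD is between arrays. Members, lists and the rule for named genes (members called against either control, plus the main cascade and feedback genes) were chosen with earlier results of these data known. Alternatives were quantile normalization, only the compared groups, the repeat number as a block, array weights, genes on every array and leaving out arrays.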

Additional observations from a re-analysis of the deposited data

Results flagged for a closer look

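Of 62 pairs of a described gene and a group of 4 measured arrays, 3 had an array that stood apart by Dixon's criterion, which chance alone meets in about 1 in 20 groups. With CpG ODN at 4 h, Gadd45b read 1.75 on repeat 2 and 1.47 to 1.49 on the others. With CpG ODN at 4 h, Dusp2 read 2.16 on repeat 3 and 3.51 to 3.53 on the others. Dusp4 in the same group read -0.55 on repeat 2 and 0.60 to 0.84 on the others.

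The CpG ODN minus control ODN difference itself was called as differing between 8 h and 2 h for 2 of 52 members, against 3.26% of all genes. It was larger at 8 h by 1.39 for Gadd45g and moved by -0.88 for Mapk14, both past an adjusted p of 0.05 with limma. The Mapk14 call was lost without control ODN repeat 2 at 8 h.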

How the results depend on the processing

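Of the 33 called differences, tested in 465 alternative fits, 391 kept their call, 74 lost it and 0 changed direction. The counts of called members below are given without the share of all genes called in the same fit. A change in them therefore does not show that the members moved apart from other genes. Called members against control ODN at 4 h numbered 3, with 0 over the compared groups only, 0 over genes on every array and 1 to 3 with an array left out (1 without control ODN repeat 3). At 8 h they numbered 5, with 3 over the compared groups, 8 with the repeat number as a block, 2 over genes on every array and 3 to 5 with an array left out (lowest without CpG ODN repeat 2 or 3). Against medium at 4 h they numbered 1, with 3 under quantile normalization, 3 with the block, 3 with array weights, and 0 over the compared groups, over genes on every array and without the 4 arrays whose database number (mAdb) in the titles was below 75000. At 8 h they numbered 6, with 2 over the compared groups, 10 with the block and 4 to 7 with an array left out. Between 8 h and 2 h, 8 were called with CpG ODN (1 over genes on every array, 5 to 9 with an array left out), 2 with control ODN (1 over genes on every array, 1 to 4) and 6 in medium (2 over the compared groups, 2 to 8). The change of the difference was called for 2, with 1 over the compared groups, 0 over genes on every array, 1 without the 4 arrays and 1 to 3 with an array left out. The cause was not tested, except that Gadd45b, Gadd45g, Map3k8 and Mapk14 lack a value on some array and so drop out of the genes on every array. Gadd45b lost its calls at 4 h over the compared groups only (adjusted p = 0.0553 against control ODN and 0.0637 against medium). The labels do not say that a repeat number marks a shared experiment. Same-numbered arrays of a time correlated in their deviations above 0.1 in 7 of 12, 8 of 12 and 6 of 9 pairs at 2, 4 and 8 h, with medians of 0.224, 0.405 and 0.484 against -0.092, -0.159 and -0.176 for other numbers, and 22 of 33 arrays (8 of 9 at 8 h) correlated best with one of their own number. This is a hint of pairing from the data, not the design; since not every pair passed 0.1, the numbers were not taken to pair the arrays. The block added calls for Dusp3, Dusp22 and Map2k6 against control ODN at 8 h, Dusp3, Dusp12, Map2k6 and Spry4 against medium at 8 h, and Gadd45g and Map3k8 against medium at 4 h. Between 8 h and 2 h it added Map2k6 and Mapk8 and dropped Mapk6 with CpG ODN, and added Spry4 in medium. Precision rests on 2 to 4 measured arrays a group.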

Other observations

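Several immediate early genes, the fast targets of MAPK signalling, fell with time in every treatment. Between 8 h and 2 h, Fos, Fosb and Jund, subunits of the AP-1 factor, were called lower with CpG ODN (-1.46, -1.25 and -1.93), with control ODN (-0.91, -1.40 and -1.56) and in medium (-1.09, -0.86 and -1.87). With CpG ODN 8 of 23 were called lower and 3 higher, where 8.13% and 8.45% of all genes were. With control ODN 6 of 21 were called lower and 0 higher (2.48% and 7.61% of all genes), and in medium 6 of 23 lower and 0 higher (5.30% and 9.26%). The macrophage markers C1qb and C1qc were called lower over the same contrasts, C1qb by -2.26, -2.44 and -3.21 with CpG ODN, with control ODN and in medium, and C1qc by -2.05, -1.90 and -1.81. Their part in the fall of the immediate early genes was not tested. Jun and Atf3, also AP-1 family members, were called higher at 8 h than at 2 h with CpG ODN (1.69 and 1.14), and Atf3 was called lower in medium (-1.54). The change of their CpG ODN minus control ODN difference between 2 h and 8 h was 2.08 and 1.92 (limma adjusted p = 7.19e-05 and 0.00512).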
